A study of Rattus norvegicus with 16 samples.

Results

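Satellite glia are the flat glial cells that wrap each sensory neuron of a dorsal root ganglion (DRG). They take up glutamate and potassium around the neuron, turn glutamate into glutamine and are joined to each other by gap junctions. After nerve or tissue injury they are known to make more of the filament protein Gfap and of gap junction proteins, a state called activation. The 9 genes described here were chosen by their symbols as satellite glial markers or signs of activation. Slc1a3 (the glutamate transporter GLAST) and Glul (glutamine synthetase) handle glutamate, Gja1 encodes the gap junction protein connexin 43, and Gfap is the glial filament protein. Fabp7 and S100b bind lipids and calcium, Sox2 and Sox10 are transcription factors of glia, and Erbb3 is a receptor for neuregulins. All 9 were among the 21021 genes listed in every sample and all 9 were among the 14023 genes tested.

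Adult female Sprague-Dawley rats received Walker 256 mammary gland carcinoma cells in the left tibia (tumor cell implantation, TCI), and the DRGs were taken on day 1, 7 or 14. The study's methods describe the sham rats as injected with boiled tumor cells and the sample labels describe an injection of PBS, so both descriptions are given here. Ipsilateral L3 to L5 DRGs of an animal were pooled as 1 sample, with 4 samples in each of the 4 groups. The main comparisons use the 14 samples that the study kept. Its 2 excluded samples, number 2 of day 1 and number 3 of day 7, correlated poorly with the rest, and their values are given apart. Sham DRGs were taken on day 14 by the labels, so on days 1 and 7 tumor and time since surgery cannot be told apart. A whole ganglion also holds neurons, Schwann cells, vessels and immune cells. S100b, Sox10 and Erbb3 are known to be made by Schwann cells too, and Gfap by non-myelinating Schwann cells. In such bulk samples, fewer cells of a type and less RNA per cell cannot be told apart.

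Levels are FPKM, a measure of abundance scaled by transcript length and by the size of the library, so genes can be ranked. The tables hold no read totals, and the depth behind each value is unknown. Genes were tested with limma on log2(FPKM + 1), and a gene is said to have risen or fallen where its Benjamini-Hochberg adjusted p over all 14023 genes was at most 0.05. Fold changes are on that log2 scale and understate the change of low genes.

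The promoters of Gfap and Glul, both of which rose on day 7, are shown first. Each run holds the 250 bases before a transcript start (RefSeq, GRCr8), written 5′ to 3′ on the gene's strand, and capitals mark a GC box (GGGCGG) or an ATAAA. The Gfap promoter lies at chr10:88361662-88361911 on the minus strand. Glul has an upstream start, with its promoter at chr13:68519250-68519499, and a second start, with its promoter at chr13:68575816-68576065, both on the plus strand.
Gfap: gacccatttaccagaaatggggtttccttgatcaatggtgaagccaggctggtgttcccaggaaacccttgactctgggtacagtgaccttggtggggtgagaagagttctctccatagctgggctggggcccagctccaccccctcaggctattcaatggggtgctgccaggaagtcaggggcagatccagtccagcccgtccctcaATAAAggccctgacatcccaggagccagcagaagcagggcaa
Glul, upstream start: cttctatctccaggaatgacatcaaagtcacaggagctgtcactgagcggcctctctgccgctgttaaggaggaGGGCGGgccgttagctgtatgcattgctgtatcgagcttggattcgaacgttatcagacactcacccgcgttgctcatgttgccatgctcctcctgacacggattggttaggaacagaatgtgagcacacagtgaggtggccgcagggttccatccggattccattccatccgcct
Glul, second start: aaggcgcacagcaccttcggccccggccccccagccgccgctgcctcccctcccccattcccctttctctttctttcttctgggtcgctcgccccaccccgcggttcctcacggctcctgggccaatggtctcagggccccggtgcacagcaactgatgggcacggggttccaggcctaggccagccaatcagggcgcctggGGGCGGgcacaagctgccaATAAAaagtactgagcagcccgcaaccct

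RefSeq promoters were found for 7 of the 9 genes, 10 promoters in all. ATAAA between 50 and 20 bases before the start, on the gene's own strand, a window chosen after the sequences were seen, was in promoters of Gfap, Glul and Fabp7 and in 4.52% of 33469 promoters. The letters GGGCGG, on either strand, were in 4 of the 10 promoters (Sox2, Fabp7 and both of Glul) and in 30.5% of all. The Sox motif AACAAT, on either strand, was in the Fabp7 promoter and in 10.3% of all. The STAT motif TTCNNNGAA, which reads the same way on both strands, was in 0 of the 10 promoters and in 7.67% of all. Such matches describe letters in a window and do not mark a site that is used.

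In sham DRGs, S100b was the most abundant of the 9 transcripts at 774 ± 101 FPKM (SD, n = 4). Glul followed at 111 ± 6.36, Sox10 at 65.3 ± 2.14, Fabp7 at 46.0 ± 5.80 and Erbb3 at 29.2 ± 1.39. Sox2 stood at 12.97 ± 0.61, Gja1 at 10.8 ± 0.90, Gfap at 6.92 ± 2.31 and Slc1a3 at 5.21 ± 0.16. Neighbours in this order did not overlap between samples, except Gfap and Slc1a3, whose sham samples overlapped. S100b made up 69.4% to 76.0% of the summed FPKM of the 9 genes in sham samples. On day 7 Gfap moved up in the order, and its 3 samples lay above all 3 samples of both Sox2 and Gja1.

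Gfap and Glul rose by day 7 and Erbb3 fell, while no gene of the 9 passed the test on day 1 or day 14. Over all genes tested, 14.5% rose and 3.45% fell on day 7, so 2 of 9 higher and 1 of 9 lower are near the background and say little of the 9 genes as a group. All day 7 samples lay above sham for 2 of the 9 and below sham for 2, against 23.8% and 10.1% of all genes. With the study's cut-offs 0 of the 9 were called, against 1.83% of all genes higher and 0% lower. The median log2 fold change of the 9 genes on day 7 was -0.12, against 0.04 over all genes tested. On day 1 the limma test called 0 of 14023 genes in either direction (0% higher and 0% lower). At an unadjusted p under 0.05 there were 734 genes (2.91% higher and 2.32% lower), and 0 of the 9.

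**Figure D1:**
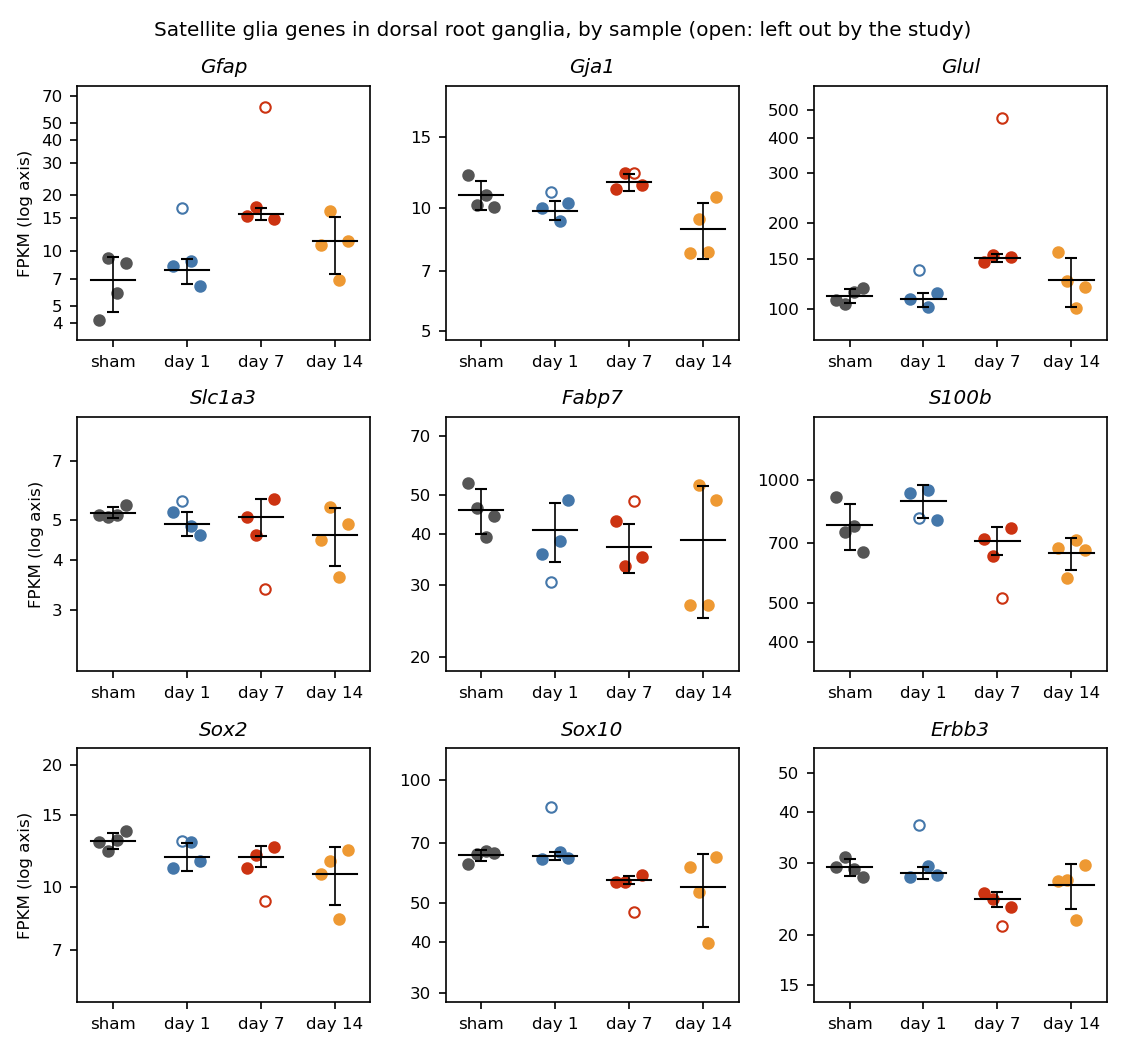
FPKM (log axis) of the 9 satellite glia genes in each sample of the sham, day 1, day 7 and day 14 groups, with the mean and SD (bars) of the samples kept by the study and open circles for the 2 samples left out. The filled day 7 samples of Gfap (14.92 to 17.23) and Glul (145.87 to 154.60) lie above all sham samples, and the open day 7 sample lies far above them at 61.10 and 469.26.

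Gfap, the filament protein taken as the classic sign of glial activation, showed the largest change of the 9. Its sham samples stood at 4.19, 9.07, 5.82 and 8.58 FPKM, and its day 1 samples at 8.19, 8.80 and 6.42. The day 7 samples stood at 15.49, 17.23 and 14.92, and those of day 14 at 10.77, 16.35, 6.89 and 11.23. All day 7 samples were above every sham and day 1 sample among the 14 kept, and day 14 overlapped with sham only through its sample 3. Against sham, Gfap rose on day 7 by a log2 fold change of 1.14 (SE 0.25, limma adjusted p = 0.00704), a fold of 2.20 with a 95% interval of 1.51 to 3.21. It was also higher on day 7 than on day 1 (log2 fold change 0.95, adjusted p = 0.0399), a comparison in which 9.02% of all genes were called higher and 1.42% lower. With all 16 samples the day 7 to day 1 difference was 1.15 and did not pass (adjusted p = 0.0768), with the left-out sample 2 of day 1 at 17.17. The call against day 1 held in 11 of 26 alternative settings. It was lost with the sample number as a replicate block, without a filter and with sample 2 of day 1 added. Rescaling to equal sums or by the median ratio also removed it. So did leaving out any 1 of samples 1, 3 and 4 of day 1 or samples 1, 2 and 4 of day 7. It was lost as well without sample 1 or 4 of day 14 or sample 3 of sham. The day 14 value of 0.63 (SE 0.23, adjusted p = 0.0856) did not pass the test, and neither did the difference between days 14 and 7 (-0.51, adjusted p = 0.532). Without sample 3 of day 14, the day 14 value was 0.83 with an adjusted p of 0.0191.

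Glul, which converts glutamate to glutamine, followed with a smaller and more uniform rise. Sham samples held 107.50, 104.02, 114.25 and 118.05 FPKM and day 1 samples 107.80, 101.68 and 113.89. On day 7 the samples held 145.87, 154.60 and 152.35, and on day 14 they held 158.90, 125.31, 100.43 and 119.41. Day 7 was apart from sham and day 1 with no overlap, whereas day 14 spread from below the lowest sham sample to above the highest day 7 sample. The day 7 change was 0.44 on the log2 scale (SE 0.11, limma adjusted p = 0.0148), a fold of 1.36 with an interval of 1.15 to 1.60. Against day 1 it was 0.48 (adjusted p = 0.0205), or 0.80 with all 16 samples (adjusted p = 0.0766), and on day 14 against sham 0.16 (adjusted p = 0.311). The call against day 1 held in 17 of 26 settings. It was lost with the replicate block, and with sample 2 of day 1 or sample 3 of day 7 added. Leaving out any 1 of samples 1 and 3 of day 1 and samples 1, 2 and 4 of day 7 also removed it. Against sham, the day 7 value without sample 2 of day 7 was 0.42 with a limma adjusted p of 0.0541, which misses the threshold. Without sample 3 of day 14, the day 14 value was 0.27 with an adjusted p of 0.0480.

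Slc1a3, the transporter that brings glutamate to Glul, did not pass the test on any day. Its samples ranged from 5.10 to 5.45 FPKM in sham, 4.60 to 5.25 on day 1, 4.59 to 5.63 on day 7 and from 3.62 to 5.39 on day 14. The day 7 fold was 0.98 with an interval of 0.85 to 1.13, and the day 14 fold was 0.89 with an interval of 0.78 to 1.02. Within a sample, the ratio of Gfap to Slc1a3 does not depend on how samples are scaled, and it was formed after the values were seen. It ran from 0.81 to 1.78 in sham, 1.396 to 1.82 on day 1, 2.65 to 3.75 on day 7 and from 1.90 to 3.03 on day 14. By this ratio both later days lay above all sham samples. The lowest day 14 ratio was that of sample 3, where Gfap at 6.89 FPKM lay within the sham range of 4.19 to 9.07. Slc1a3 was at its lowest there, at 3.62, so the ratio does not show more Gfap in that sample. The ratio of Gfap to S100b, by contrast, overlapped on day 14 with sham, at 0.00969 to 0.0284 against 0.00461 to 0.0129.

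Gja1 (connexin 43), the second sign of activation, passed the test on no day against sham. Sham samples held 12.05, 10.21, 10.80 and 10.07 FPKM and day 1 samples 10.03, 9.29 and 10.30. Day 7 samples held 11.16, 12.20 and 11.38, and day 14 samples 7.75, 9.43, 7.81 and 10.65. Day 7 overlapped with sham, and 3 of the 4 day 14 samples were below every sham sample. The day 7 log2 fold change was 0.10 (adjusted p = 0.534), with a fold interval of 0.93 to 1.23. On day 14 it was -0.26 (SE 0.09, adjusted p = 0.0680), and between days 14 and 7 it was -0.35 (unadjusted p = 0.00264, adjusted p = 0.224, both limma). The day 14 value passed the test where samples were rescaled, at -0.32 after quantile normalization (adjusted p = 0.0196), -0.31 with equal sums (0.0484) and -0.29 with the median ratio (0.0377).

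Fabp7 and S100b, the markers that bind lipids and calcium, passed no test against sham. Fabp7 ran from 39.52 to 53.51 FPKM in sham, 35.75 to 48.62 on day 1, 33.46 to 43.25 on day 7 and from 26.77 to 52.89 on day 14. Its day 14 samples lay in 2 pairs, at 26.77 and 26.88 and at 52.89 and 48.56, so the fold of 0.81 had a wide interval of 0.60 to 1.10. S100b was 891 ± 82.2 FPKM on day 1 (n = 3), 711 ± 55.8 on day 7 (n = 3) and 661 ± 58.9 on day 14 (n = 4). Against sham its log2 fold changes were 0.21, -0.12 and -0.22, with limma adjusted p of 0.939, 0.488 and 0.141. Between day 1 and day 14 it fell by 0.43 on the log2 scale (SE 0.10, adjusted p = 0.0281), and 1.06% of all genes fell and 5.9% rose in that comparison. With all 16 samples this was -0.40 with an adjusted p of 0.0703. The call held in 19 of 26 settings and was lost, among others, without sample 1 or 3 of day 1 or sample 2 of day 14. Of 10 myelinating Schwann cell genes, 4 were lower on day 14 than on day 1, and their part in the S100b values was not tested.

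Of the transcription factors and their partner receptor, only Erbb3 was called. Erbb3 held 29.26, 31.06, 28.96 and 27.70 FPKM in sham and 27.63, 29.42 and 28.04 on day 1. It held 25.35, 24.52 and 23.38 on day 7 and 27.12, 27.26, 21.69 and 29.61 on day 14. All day 7 samples were below every sham and day 1 sample. The fall was 0.84-fold (interval 0.74 to 0.95), or -0.25 on the log2 scale (SE 0.08, limma adjusted p = 0.0492). This call stood at the threshold and held in 10 of 27 alternative settings (those that keep the 0.05 threshold, so without the study's cut-offs), where the adjusted p ran from 0.00332 to 0.161. Sox10, which drives Erbb3 in neural crest glia, also had its 3 day 7 samples (56.05, 56.26 and 58.51) below the sham samples (62.20, 66.01, 67.04 and 66.11). Its log2 fold change of -0.20 did not pass the test (adjusted p = 0.288), nor did its day 14 value of -0.28 (adjusted p = 0.109). Sox2, a factor of glial precursors that satellite glia keep, ran from 12.24 to 13.72 in sham, 11.13 to 12.53 on day 7 and from 8.32 to 12.33 on day 14. Its day 14 log2 fold change was -0.26 (adjusted p = 0.0797).

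**Figure D2:**
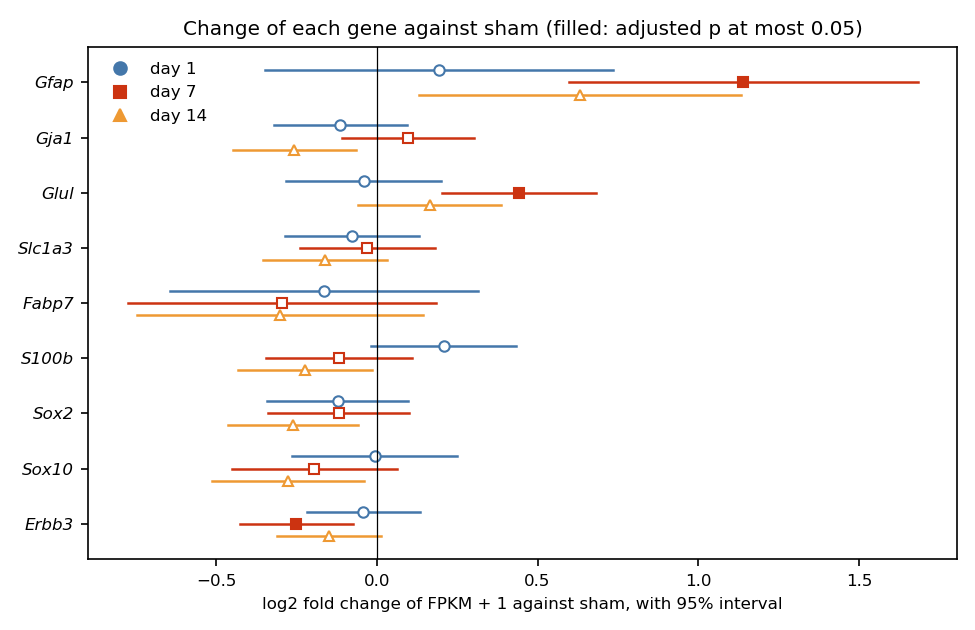
Log2 fold change of FPKM + 1 against sham for the 9 genes on days 1, 7 and 14, with 95% intervals and filled markers where the limma adjusted p was at most 0.05. Gfap and Glul are filled on day 7 at 1.14 and 0.44 and Erbb3 at -0.25, and on day 14 all markers are open and 7 of 9 lie below 0.

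On day 14, 0 of the 9 genes passed the limma test, against 11.9% of all genes that rose and 3.21% that fell. At an unadjusted p under 0.05 there were 5 of 9, with Gfap above sham and Gja1, Sox2, Sox10 and S100b below it, against 20.8% of all genes above and 9.16% below. Of the 9 log2 fold changes 7 were negative, and 43.6% of those of all genes were. Their median was -0.22, and that of all genes was 0.03. Sample 3 of day 14 held the lowest day 14 value of 6 of the 9 genes, among them Sox10 at 39.76, Sox2 at 8.32 and Glul at 100.43. Without this sample, 2 of the 9 genes were called higher (Gfap and Glul) and 0 lower, and the median was -0.14. Without sample 4 of day 14, 3 of the 9 genes were called lower, Gja1 at -0.34 (limma adjusted p = 0.0127), Sox2 at -0.33 (0.0342) and Sox10 at -0.37 (0.0333). Between days 14 and 7, 0 of the 9 passed the limma test and 2 of 9 had an unadjusted p under 0.05, Gja1 and Glul, both lower on day 14. In that comparison 0.00713% of all genes rose and 0.0927% fell, and 2.95% and 7.01% had an unadjusted p under 0.05 above and below.

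The genes whose course over the 14 samples was most like a called gene were taken from 9536 genes with a mean of at least 5 FPKM. Likeness was the root mean square difference of log2(FPKM + 1), with each gene centred on its sham mean. Nearest to Gfap were Vamp5 (0.19), Skap2 (0.22) and Cnn2 (0.25). The root mean square deviation of Gfap itself from its sham mean was 0.71. Nearest to Glul were Oplah (0.07), Slc2a1 (0.09) and Fkbp9 (0.10), with a deviation of Glul itself from its sham mean of 0.26. Oplah encodes an enzyme that forms glutamate from oxoproline, and Slc2a1 is the glucose transporter GLUT1. Oplah went from 4.87 FPKM in sham to 6.99 on day 7, and Slc2a1 from 33.4 to 43.3. Nearest to Erbb3 were Kank4 (0.05), Igdcc4 (0.07) and the kinase gene Src (0.07), with a deviation of Erbb3 itself from its sham mean of 0.17.

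Another 11 genes known from satellite glia were tested in the same way. On day 7, 0 rose and 1 fell (median log2 fold change -0.16), against 14.5% and 3.45% of all genes, and 1 of 11 says little of the list. On day 14, 0 rose and 4 fell, against 11.9% and 3.21% of all genes. The day 14 median was -0.26, against 0.03 over all genes. Kcnj10, the potassium channel Kir4.1 with which satellite glia buffer potassium, had the lowest p on day 7. It held 35.03, 33.13, 32.06 and 37.46 FPKM in sham and 31.00, 27.39 and 27.14 on day 1. On day 7 it held 20.93, 23.21 and 16.52, and on day 14 it held 19.93, 17.15, 10.34 and 23.32. All samples of every TCI day were below all sham samples. Kcnj10 fell by 0.75 on the log2 scale on day 7 (SE 0.20, limma adjusted p = 0.0187) and by 0.97 on day 14 (SE 0.18, adjusted p = 0.00417). Without sample 4 of day 7, the day 7 value was -0.62 with an adjusted p of 0.0842, and with day 1 in place of sham it was -0.49 (adjusted p = 0.179). The day 14 call held in all 27 settings that keep the 0.05 threshold and was lost under the study's cut-offs.

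Ednrb, the endothelin B receptor, fell on day 14 as well (-0.44, limma adjusted p = 0.00693). Ntrk2, the receptor TrkB (-0.37, adjusted p = 0.0132), and the glial cadherin Cdh19 (-0.26, adjusted p = 0.0404) fell too and are named after their values were seen. The Cdh19 call held in 12 of 27 settings, and with day 1 in place of sham its value was -0.069 (adjusted p = 0.71). Apoe, the most abundant of these 11 genes at 3567 FPKM in sham, was at 3217 on day 14 (adjusted p = 0.243). With all 16 samples 3 of the 11 fell on day 14, and leaving out single samples gave 3 to 5. On day 7, 5 of the 11 fell with all 16 samples and also without sample 3 of day 14, 3 fell without sample 4 of sham, 2 without sample 2 of day 14, and 0 without sample 4 of day 7.

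**Figure D3:**
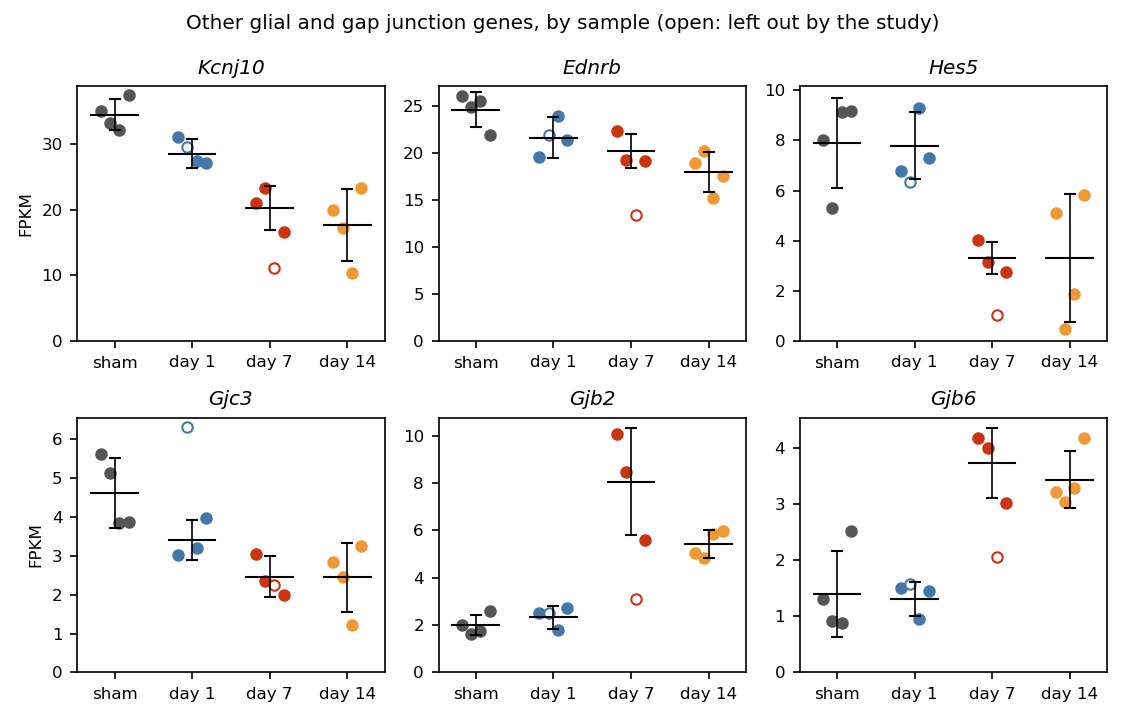
FPKM (linear axis from 0) of 6 further glial and gap junction genes in each sample, with the mean and SD of the samples kept by the study and open circles for the 2 left out. Kcnj10 falls from 34.4 in sham to 20.2 on day 7 and 17.7 on day 14 on average, while Gjb2 and Gjb6 are higher on days 7 and 14.

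Gap junction genes other than Gja1 did not move as 1 group. Of 9 tested connexins and pannexins, 4 rose and 1 fell on day 7, and 2 rose and 1 fell on day 14. The shares of all genes that rose and fell were 14.5% and 3.45% on day 7 and 11.9% and 3.21% on day 14. Gjb2 (connexin 26) ran from 1.63 to 2.60 FPKM in sham, while the day 7 samples held 10.08, 8.48 and 5.60 and the day 14 samples spanned 4.82 to 5.96. No sham sample reached the lowest of days 7 and 14, and the log2 fold changes were 1.57 (limma adjusted p = 0.000102) and 1.11 (adjusted p = 0.000821). Gjb6 (connexin 30) rose by 1.02 and 0.92 (adjusted p = 0.00305 and 0.00497). Gja4 (connexin 37), known from vessel walls, rose on day 7 by 0.44 (adjusted p = 0.0280), a call that held in 18 of 26 settings. Of 8 endothelial genes 2 rose on day 7, with summed FPKM of 61.6 to 65.4 in sham and 68.7 to 89.3 on day 7, and their part in the Gja4 value was not tested. Gjc3 (connexin 29), known from Schwann cells and satellite glia, was named after its values were seen and fell by 0.69 on day 7 (adjusted p = 0.0287), a call that held in 20 of 26 settings. The pannexin gene Panx1, which forms ATP channels, rose on day 7 by 0.24 (adjusted p = 0.0441) and kept that call in 8 of 27 settings. Quantile normalization left 2 higher and 2 lower on day 7.

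Among 14 genes known from reactive glia, 6 rose and 0 fell on day 7, and 6 rose and 0 fell on day 14, with medians of 0.39 and 0.30. Over all genes, 14.5% rose and 3.45% fell on day 7, and 11.9% rose and 3.21% fell on day 14. C3, the complement component, went from 0.87 ± 0.51 FPKM in sham to 17.8 ± 3.43 on day 7 and 24.8 ± 17.5 on day 14 (log2 fold changes 3.35 and 3.57, limma adjusted p = 0.000204 and 0.000217). Cp, the copper carrier ceruloplasmin, rose from 6.33 ± 0.58 to 29.5 ± 3.25 and 21.97 ± 11.5 (2.06 and 1.52, adjusted p = 0.000272 and 0.00186). Timp1, an inhibitor of metalloproteases, rose on day 7 by 0.88 (adjusted p = 0.000718) and stood at 0.19 on day 14 (adjusted p = 0.338). Vim, the filament vimentin, rose by 0.50 and 0.34 (adjusted p = 0.00133 and 0.0116). Its day 14 call was lost after quantile normalization (0.29, adjusted p = 0.064) and with day 1 in place of sham (0.14, adjusted p = 0.38). Synm, the filament synemin, and Stat3, a factor downstream of cytokine receptors, were at -0.12 and 0.02 on day 7 (adjusted p = 0.359 and 0.893). C3, Vim and several others of this list are also known from immune cells and fibroblasts.

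Around Glul, 1 of 7 tested glutamate and glutamine genes rose and 1 fell on day 7, against 14.5% and 3.45% of all genes. Counts of 1 say little of these genes as a group. Slc1a5, a glutamine transporter, rose from 1.18 ± 0.05 FPKM in sham to 3.85 ± 0.57 on day 7 and 3.48 ± 1.22 on day 14 (log2 fold changes 1.15 and 1.01, limma adjusted p = 0.000346 and 0.00096). Slc38a2, another glutamine transporter, fell by 0.25 on day 7 (adjusted p = 0.00539) and by 0.29 on day 14 (adjusted p = 0.00224). Glud1, glutamate dehydrogenase, was at 93.9 FPKM in sham and 92.5 on day 7 (adjusted p = 0.771).

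Around Erbb3, 1 of 7 tested neuregulin and ErbB genes rose and 1 fell on day 7, against 14.5% and 3.45% of all genes. Nrg1, the ligand of Erbb3, fell by 0.26 on day 7 and by 0.21 on day 14 (limma adjusted p = 0.00414 and 0.0136). With day 1 in place of sham neither passed (-0.16 and -0.10, adjusted p = 0.0989 and 0.298), and with all 16 samples the day 14 value did not (adjusted p = 0.170). Egfr, which was low in sham at 1.05 ± 0.20 FPKM, rose by 0.92 on day 7 (adjusted p = 0.00456). Of 13 further transcription factors of glia, Hes1, a target of Notch, and Jun, a factor of injured neurons and Schwann cells, rose on day 7, each by 0.28 (adjusted p = 0.0217 and 0.0245). These 2 of 13 are near the 14.5% of all genes that rose. Each of the 2 calls held in 20 of 27 settings. With day 1 in place of sham the values were 0.15 and 0.10 (limma adjusted p = 0.305 and 0.533). Hes1 did not pass under any of the 3 rescalings, and Jun did not with equal sums or the median ratio. On day 14, 1 of the 13 rose and 2 fell, against 11.9% and 3.21% of all genes, and such small counts say little of the list. The gene that rose was Hes1, a call that held in 26 of 27 settings (log2 fold change 0.23 to 0.40). With day 1 in place of sham its day 14 value did not pass (0.23, limma adjusted p = 0.0961). The factor Hes5 fell on day 14 by 1.27 (adjusted p = 0.0404) and Pou3f2 by 0.45 (adjusted p = 0.0389). Both are named after their values were seen and were called in 11 of 27 and 9 of 26 settings. Of 11 tested relatives of S100b and Fabp7, S100a9, known from neutrophils, and S100a6 rose on day 7 (2.20 and 0.36, adjusted p = 0.00109 and 0.00514). S100a1 fell by 0.30 (limma adjusted p = 0.0166), so 2 of 11 rose and 1 of 11 fell, against 14.5% and 3.45% of all genes. The S100a6 call was lost with all 16 samples (0.26, adjusted p = 0.0745) and with day 1 in place of sham (0.035, adjusted p = 0.854), and the S100a1 call held in 23 of 27 settings.

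Other cell types of the ganglion changed on the same days, and their part in the values above was not tested. For the day 7 counts that follow, the shares over all genes were 14.5% higher and 3.45% lower. All 10 macrophage genes rose on day 7, and their summed FPKM ran from 26.2 to 39.8 in sham, 30.2 to 34.6 on day 1, 196 to 273 on day 7 and from 98.5 to 334 on day 14. All 7 tested T cell genes rose on day 7 as well, with sums of 5.68 to 8.48 in sham and 40.8 to 92.9 on day 7. Of 7 fibroblast genes 4 rose, with sums of 415 to 593 in sham and 978 to 1229 on day 7. Of 15 neuronal genes 5 fell on day 7, led by the neurofilament gene Nefh (-0.30, limma adjusted p = 0.00423), and the sums were 18266 to 19224 in sham and 15554 to 16257 on day 7. The 10 myelinating Schwann cell genes gave 0 calls on day 7 against sham, with sums of 8498 to 11391 in sham and 6980 to 8675 on day 7. Their median log2 fold change on day 7 against sham was -0.23. Against day 1, 7 of these 10 genes were lower on day 7 and 0 higher, where 1.42% of all genes fell and 9.02% rose. Aqp4, a marker of central astrocytes named after its values were seen, was at 0.20 ± 0.04 FPKM in sham and 0.14 ± 0.02 on day 7. Genes of skeletal muscle summed to 10.3 to 586 FPKM in sham, where sample 4 held the highest value. Without that sample, Gfap was at 1.249 and Glul at 0.47 on day 7 (log2 fold changes), both still called.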

How the data were processed

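RNA was measured in DRGs of 16 rats, and groups were taken from the sample titles. The authors filtered reads, mapped them with HISAT and Bowtie2 and estimated expression with RSEM, and they deposited FPKM values, 1 table per sample. The submitters' processing notes also name CASAVA 1.4. Genome build, annotation and mapping versions are not given in the sources used here. The methods name BGISEQ-500 sequencing and the labels an Illumina protocol.

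Deposited FPKM were put on a log2(FPKM + 1) scale. A gene was tested if 3 or more of the 14 samples kept by the study reached 1 FPKM, which 14023 did. All 4 groups entered 1 fit (limma 3.58.1 in R 4.3.3, lmFit and eBayes with trend, two-sided), with Benjamini-Hochberg adjustment and calls at 0.05. Each day was compared with sham, days 7 and 14 with day 1, and day 14 with day 7. A count model such as the study used could not be run, since FPKM hold no counts. Each sample came from a different animal, by the methods. The procedure was tested on simulated data. The number of fragments per value is unknown, so no counting error is given.

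The 9 genes, the other gene lists and the tests were chosen with earlier results of these data known. Each of the 9 genes is described in full. Of the other lists, counts are given, with examples taken from the 3 lowest p on day 7 and the 3 highest sham levels. Genes outside this rule are said to be named after their values were seen. Results for 2 genes of these lists are not reported here, and both were left out of the counts. Promoters were read from a RefSeq table of GRCr8, leaving out bases after the start. Alternatives were all 16 samples, only the groups compared, other filters, pseudocount 0.1, no trend, 3 rescalings, the study's cut-offs (absolute log2 fold change from 1 and adjusted p up to 0.001), day 1 as reference, a block, and each sample left out in turn. Adding sample 2 of day 1 or sample 3 of day 7 alone was chosen after seeing the data. Plots used matplotlib 3.10.9 (Python 3.11.15).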

Additional observations from a re-analysis of the deposited data

Results flagged for a closer look

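Sample 3 of day 7, which the study left out, stood apart from its group in both genes that rose. Glul was at 469.26 FPKM there, against 145.87 to 154.60 in the other day 7 samples and 104.02 to 118.05 in sham. Gfap was at 61.10, against 14.92 to 17.23 in the other day 7 samples and 4.19 to 9.07 in sham. Gja1 in this sample, at 12.20, was just above the highest sham sample at 12.05. S100b, Sox10, Sox2, Erbb3 and Slc1a3 had their lowest day 7 values in it. The summed skeletal muscle genes reached 25377 FPKM in this sample, where the other day 7 samples held 12.0 to 17.7. Aqp4 was at 5.56 and Aldh1l1 at 23.57, against sham means of 0.20 and 1.29. The part of muscle or other tissue in these values was not tested.

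Sample 2 of day 1, also left out by the study, held the highest day 1 value of 7 of the 9 genes. Sox10 was at 85.79 FPKM, apart from 63.90 to 66.61 in the other day 1 samples, and above the highest sham sample at 67.04. Above all sham samples it also held Glul at 137.23, Gfap at 17.17, Erbb3 at 37.23 and Slc1a3 at 5.56. The summed myelinating Schwann cell genes were at 20902 FPKM in it, against 8498 to 11391 in sham, and their part in these values was not tested. Of 36 groups of 4 samples checked for a sample apart, 3 had such a sample, and all 3 were in the 2 samples left out by the study. The checks cover 9 genes in the same samples and are not independent. A chance rate of about 1 in 20 per check is therefore no yardstick for this count.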

How the results depend on the processing

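The rise of Gfap on day 7 was called in 27 of 27 alternatives that keep the 0.05 threshold (log2 fold change 0.95 to 1.61) and that of Glul in 25 of 27 (0.38 to 0.85). The 3 calls of day 7 became 0 under the study's cut-offs, and leaving out single samples gave 1 to 4. The 0 calls of day 14 became 3 after quantile normalization (Slc1a3, Gja1 and Sox2, all lower), 2 with the median ratio, 1 with equal sums and 1 with day 1 as reference (S100b), and leaving out single samples gave 0 to 3. Day 1 against sham and day 14 against day 7 gave 0 in all alternatives. Rescaling changed the balance over all genes, since 80.7% of day 7 calls were rises as deposited and 36.6% after quantile normalization, 63.9% with equal sums and 57.6% with the median ratio. On day 14 these shares were 78.8%, 41.6%, 65.5% and 58.9%. The median log2 fold change of all genes on day 7 moved from 0.04 to -0.07 after quantile normalization, a shift of over 0.1.

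Some values changed sign, and the cause was not tested. All of them were uncalled and small except that of S100a6 on day 14. With all 16 samples, or with sample 2 of day 1 added, the day 1 values of Glul, Sox10 and Erbb3 were 0.046, 0.092 and 0.053. With day 1 as reference, the day 7 values of Slc1a3 and Sox2 were 0.048 and 0.0030. S100a6 was called higher on day 14 against sham, a call that held in 13 of 27 settings. With day 1 as reference its day 14 value was -0.077. Between days 14 and 7, Fabp7 was at 0.0058 after quantile normalization, 0.0065 with equal sums and 0.016 with the median ratio, and S100b was at 0.011 with all 16 samples or with sample 3 of day 7 added. Leaving out single samples gave Sox10 -0.030 to 0.0058 on day 1, Slc1a3 -0.091 to 0.032 on day 7, and, between days 14 and 7, Fabp7 -0.17 to 0.14 and Sox10 -0.17 to 0.060.

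Equal sample numbers do not pair animals here. With the number as a replicate block, 3 of the 9 genes were called on day 7 (2 higher, 1 lower) and 0 on day 14, and Fabp7 between days 14 and 7 was at 0.080. Deviations from the group mean were correlated between samples of different groups. Samples with the same number gave -0.10 to 0.27 (median 0.0026), and those with other numbers -0.33 to 0.41 (median -0.0047). Of the 14 samples, 6 correlated best with their own number. In the setting that tested only genes with a mean of at least 5 FPKM over the 14 samples, 8 of the 9 genes were tested and Slc1a3 was not. The depth behind these FPKM is unknown, so low genes such as Slc1a3 and Gfap carry a counting error that cannot be given.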
